A study of Mus musculus with 9 samples.

Results

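The 10 Frizzled receptor genes of the mouse, Fzd1 to Fzd10, were examined in the 9 RNA-seq libraries of this series. Members were the rows of the deposited gene tables whose symbol equals one of these names, and each of the 10 names matched 1 row among the 56691 genes of every table. The libraries came from embryoid bodies (EBs) of the BVSC line of mouse pluripotent stem cells (PSCs), which report Blimp1 by mVenus (BV) and Stella by CFP. Cells positive for BV (BV+, taken by the study as PGC-like cells, PGCLCs) and negative for it (BV-, taken as somatic cells) were sorted by flow cytometry from EBs whose PSCs carried a doxycycline (DOX) inducible vector, either with the Nrf1 cDNA (NRF1 OE) or empty (Ctrl). The groups were BV+ NRF1 OE (n = 2), BV+ Ctrl (n = 2), BV- NRF1 OE (n = 3) and BV- Ctrl (n = 2). All groups, Ctrl included, shared the BVSC line, the p20 vector and DOX at 1.5 μg/ml from day 2 to day 5 of differentiation. Before differentiation the PSCs were kept in a medium with CHIR99021, which inhibits GSK3 and so turns on WNT signalling. The differentiation medium of the EBs, as listed in the methods of the study, does not name CHIR99021. The methods of the study call the RNA-seq replicates biological but do not say which came from separate cultures, so the p-values measure the spread between these libraries.

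Frizzled proteins are receptors with 7 membrane spans that bind WNT ligands through a cysteine-rich domain outside the cell. With the co-receptors LRP5 and LRP6 they recruit Dishevelled and stabilise β-catenin, and with other partners they act in planar cell polarity and calcium signalling. WNT signals from the embryo make epiblast cells able to respond to BMP and become PGCs, and Frizzled receptors also act in the self-renewal of PSCs. By sequence the family falls into the subgroups Fzd1, Fzd2 and Fzd7, Fzd5 and Fzd8, Fzd4, Fzd9 and Fzd10, and Fzd3 and Fzd6. NRF1 is a transcription factor of nuclear genes for mitochondrial proteins, and its known site is a GC-rich palindrome.

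Total counts lay between 13702162 and 19625460 per library. Levels are given as CPM (counts scaled by TMM to the depth of each library), and levels of different genes are compared only as the authors' FPKM, which is per length. "Called" means a Benjamini-Hochberg adjusted p under 0.05 in edgeR's quasi-likelihood test over the 16903 genes that passed the filter on low counts, and all 10 Frizzled genes passed it. Nrf1 itself stood at 95.6 and 99.3 CPM in BV+ NRF1 OE and at 91.0 and 90.3 CPM in BV+ Ctrl, a log2 difference of 0.10 ± 0.104 (SE, adjusted p = 0.489). In BV- cells it ranged from 119 to 125 CPM with NRF1 OE against 99.0 and 105 CPM with Ctrl, a log2 difference of 0.26 ± 0.0951 (adjusted p = 0.0718). Prdm1, which encodes BLIMP1, did not set the labelled populations apart: it lay between 53.2 and 62.7 CPM in the 4 BV+ libraries and between 42.4 and 61.9 CPM in the 5 BV- libraries. Its log2 difference between BV+ and BV- was 0.05 ± 0.166 with Ctrl (adjusted p = 1.0) and 0.00 ± 0.151 with NRF1 OE (adjusted p = 0.998). The names BV+, BV- and NRF1 OE are therefore used as labels only. The spread of the libraries over GC content also followed the labels: the rank correlation of a library's deviations with the GC content of 12025 genes was between -0.616 and -0.536 in the 4 Ctrl libraries and between -0.00633 and 0.702 in the 5 NRF1 OE libraries. This measure is called the GC trend, and values from a fit with offsets for the trends over GC content and length are given where they change a call.

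Because Fzd2 is the member that the study chose for PCR, its designed primers are shown here, with the strand and position at which each matched the transcript Fzd2-201 of GENCODE M21 (3663 bases, 1 exon, coding region from base 337 to base 2049). The RT-PCR pair lies within the coding region, at bases 972 to 994 (sense) and 1050 to 1072 (antisense). The pair for chromatin precipitation lies before the coding region, at bases 122 to 139 (sense) and 185 to 204 (antisense). Each of the 4 primers matched the transcripts of Fzd2 along its whole length and those of no other annotated gene.
RT-PCR sense primer: gccgtcctatctcagctataagt
RT-PCR antisense primer: tctcctcttgcgagaagaacata
Chromatin sense primer: ccgaccctcagtccgacc
Chromatin antisense primer: gccgcagagttggggagatt

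The stretch of 250 bases before the RefSeq start was read for Fzd1, which had the largest difference of any member between the populations, and for Fzd7, which had the highest level and was called in no comparison. The stretches are chr5:4758217-4758466 on the minus strand for Fzd1 and chr1:59481897-59482146 on the plus strand for Fzd7, on GRCm38.p6. CpG dinucleotides, which the NRF1 site contains, are in capitals.
Fzd1 before the start: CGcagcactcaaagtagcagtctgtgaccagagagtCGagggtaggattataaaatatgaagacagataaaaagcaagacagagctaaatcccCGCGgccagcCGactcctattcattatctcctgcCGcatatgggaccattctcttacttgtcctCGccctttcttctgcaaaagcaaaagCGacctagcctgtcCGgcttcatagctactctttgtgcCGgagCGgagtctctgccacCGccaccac
Fzd7 before the start: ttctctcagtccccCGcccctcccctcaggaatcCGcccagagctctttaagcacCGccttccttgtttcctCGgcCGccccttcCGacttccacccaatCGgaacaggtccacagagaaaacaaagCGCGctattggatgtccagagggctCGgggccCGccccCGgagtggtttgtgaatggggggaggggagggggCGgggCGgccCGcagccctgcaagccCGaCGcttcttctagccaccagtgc

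The RefSeq table of promoters (250 bases before to 50 after the start, GRCm38.p6) held 6 of the 10 members, namely Fzd1, Fzd4, Fzd5, Fzd7, Fzd9 and Fzd10. Fzd2, Fzd3, Fzd6 and Fzd8 were not matched in it. The 300 bases held 16 CpG dinucleotides for Fzd1, 24 for Fzd7, 32 for Fzd4, 38 for Fzd5, 45 for Fzd10 and 53 for Fzd9, beside a median of 7 over all promoters of the table. The core of the NRF1 site, ATGCGC, was searched on both strands and occurred in 6.96% of 27025 promoters and in 1 of the 6 Frizzled promoters. That match, in capitals below, lies in Fzd10 at bases 10 to 15 counted from 1 at the start (chr5:128601103-128601132, plus strand), and a match of letters is not a measured binding site.
Fzd10 around the start: gactggatgggcATGCGCgggggcccgagc

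As FPKM, Fzd7 was the most abundant Frizzled transcript by group mean in all 4 groups, with 41.8 ± 3.89 FPKM in BV+ NRF1 OE (SD, n = 2), 47.1 ± 0.134 in BV+ Ctrl (n = 2), 47.7 ± 1.90 in BV- NRF1 OE (n = 3) and 50.1 ± 4.23 in BV- Ctrl (n = 2). Fzd2 came next, and its level varied most between the groups in absolute FPKM, while Fzd1 varied more relative to its lowest group mean. It was 41.2 ± 16.7 FPKM in BV+ NRF1 OE, 13.6 ± 0.707 in BV+ Ctrl, 13.4 ± 4.29 in BV- NRF1 OE and 7.19 ± 0.325 in BV- Ctrl. In BV+ NRF1 OE the libraries of Fzd2 and Fzd7 overlapped, and in the other 3 groups those of Fzd7 lay above those of Fzd2. Fzd5 and Fzd10 followed, between 3.55 and 7.13 FPKM as group means, and Fzd5 overlapped Fzd2 in BV- Ctrl. The other 6 genes had group means between 0.295 and 3.28 FPKM. Fzd1 was lowest of all in 3 groups, from 0.295 ± 0.0919 FPKM in BV- Ctrl to 0.905 ± 0.120 FPKM in BV+ Ctrl, but ranked above 4 other members in BV+ NRF1 OE at 2.47 ± 0.488 FPKM. There it overlapped its neighbours Fzd8 and Fzd6.

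The sum of the 10 genes was 118 and 96.4 FPKM in the BV+ NRF1 OE libraries, 79.5 and 80.3 in BV+ Ctrl, 71.6, 81.7 and 78.6 in BV- NRF1 OE, and 72.0 and 77.9 in BV- Ctrl. Without Fzd2 the sum stayed between 61.1 and 70.5 FPKM in all 9 libraries. Thus the excess in the BV+ NRF1 OE libraries lay mostly in Fzd2, which made up 45.1% and 30.6% of the sum there. Its share was 16.4% and 17.5% in BV+ Ctrl, 14.7%, 22.5% and 14.5% in BV- NRF1 OE, and 9.66% and 9.52% in BV- Ctrl. Fzd2 and Fzd7 together made up between 75.1% and 81.1% of the sum in every library. The ratio of Fzd2 to Fzd7 in FPKM was 1.36 in BV+ NRF1 OE replicate 1 and below 1 in the other 8 libraries, from 0.140 to 0.661.

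**Figure D1:**
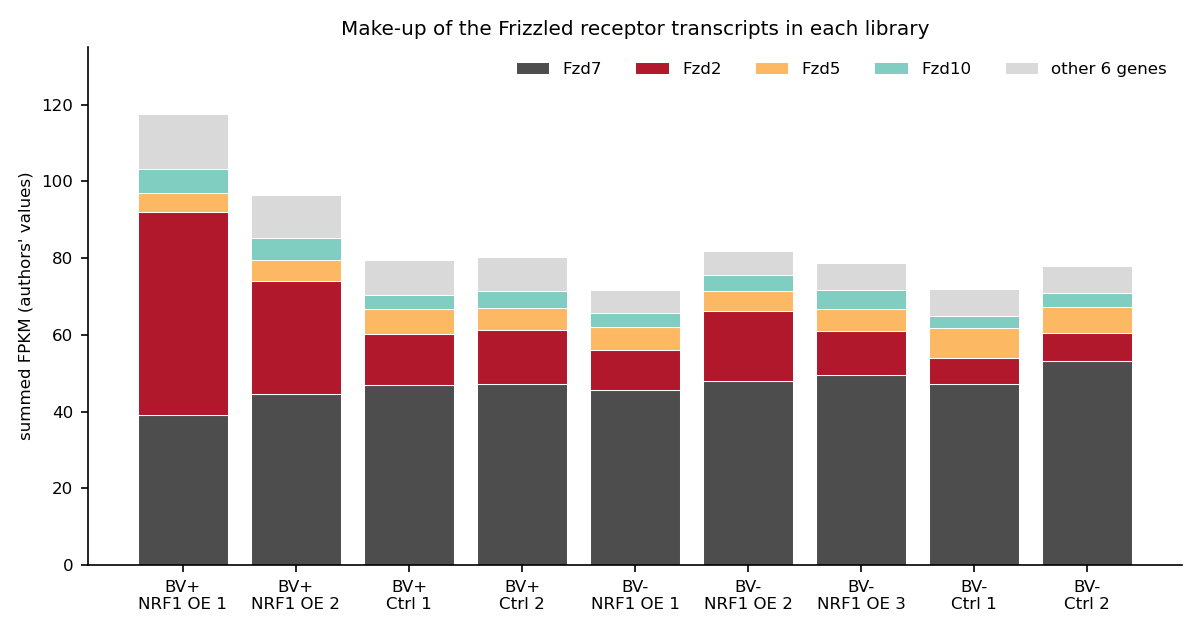
Stacked bars of the authors' FPKM for Fzd7, Fzd2, Fzd5, Fzd10 and the sum of the other 6 Frizzled genes in each of the 9 libraries (vertical axis, FPKM from 0). The grey Fzd7 block is of similar height in all libraries, and the red Fzd2 block is tallest in the BV+ NRF1 OE libraries, where the sum reached 118 and 96.4 FPKM.

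To learn how the Frizzled genes differed with NRF1 OE in BV+ cells, BV+ NRF1 OE was compared with BV+ Ctrl. Fzd2, Fzd1 and Fzd8 were higher with NRF1 OE, by 3.12, 2.83 and 2.07 times, and no member was called lower. These 3 of the 10 genes compare with 6.24% of all genes called higher and 1.78% called lower, and 4 members against 17% of all genes passed the threshold of the study (unadjusted p under 0.05 and absolute log2 fold change above 0.58). The median log2 difference was 0.24 over the 10 members and 0.04 over all genes tested. In bulk libraries like these, a change in the share of cells that express a gene and a change in RNA per cell cannot be told apart.

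In the subgroup of Fzd1, Fzd2 and Fzd7, the values were as follows. Fzd2, a receptor known for WNT5A signalling as well as for the β-catenin branch, was at 196 and 107 CPM in BV+ NRF1 OE and at 46.8 and 50.3 CPM in BV+ Ctrl. The groups did not overlap, and replicate 1 of NRF1 OE was far above replicate 2. The log2 difference was 1.64 ± 0.283 (SE, adjusted p = 0.0142). Fzd1, a near relative of Fzd2, was at 11.9 and 8.91 CPM with NRF1 OE and at 4.06 and 3.35 CPM with Ctrl, again without overlap. Its log2 difference was 1.50 ± 0.255 (adjusted p = 0.0137). Fzd7, a leading Frizzled receptor of mouse PSCs, was at 179 and 201 CPM with NRF1 OE and at 208 and 209 CPM with Ctrl, so that both NRF1 OE libraries lay lower. The difference of -0.13 ± 0.112 in log2 did not pass (adjusted p = 0.411).

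Fzd8 and Fzd5, which bind WNT ligands of the β-catenin branch, make up another subgroup. Fzd8 was at 25.3 and 14.0 CPM in BV+ NRF1 OE and at 9.62 and 9.43 CPM in BV+ Ctrl. As for Fzd2, replicate 1 of NRF1 OE was the highest library and the groups did not overlap. The log2 difference of Fzd8 was 1.05 ± 0.282 (adjusted p = 0.0460). Fzd5 was at 33.2 and 36.9 CPM with NRF1 OE and at 44.0 and 38.8 CPM with Ctrl, lower in both libraries but not called (log2 -0.24 ± 0.142, adjusted p = 0.251).

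Fzd10 was at 20.8 and 18.9 CPM in BV+ NRF1 OE and at 12.1 and 13.7 CPM in BV+ Ctrl, without overlap. Its log2 difference of 0.62 ± 0.172 narrowly missed the threshold (adjusted p = 0.0502), and it passed without BV- NRF1 OE replicate 1 (adjusted p = 0.0324) or 2 (adjusted p = 0.0135). Fzd4, which besides WNT ligands binds Norrin, was at 6.95 and 8.64 CPM with NRF1 OE and at 8.51 and 8.70 CPM with Ctrl. Fzd9 was at 4.48 and 2.61 CPM with NRF1 OE and at 2.81 and 2.93 CPM with Ctrl, with the 2 NRF1 OE libraries on either side of Ctrl. Fzd3 and Fzd6, the members best known for planar polarity in axons and hair, also overlapped between the groups. Fzd3 stood at 29.7 and 23.4 CPM against 22.5 and 24.4 CPM, and Fzd6 at 9.88 and 11.3 CPM against 9.95 and 8.85 CPM. The log2 differences of Fzd3, Fzd4, Fzd6 and Fzd9 lay between -0.14 and 0.30, none of them called.

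Leaving out BV+ NRF1 OE replicate 1, the library with the highest Fzd2, ended all 3 calls, with log2 differences of 1.15 for Fzd2 (adjusted p = 0.171), 1.27 for Fzd1 (adjusted p = 0.177) and 0.56 for Fzd8 (adjusted p = 0.414). The calls were also lost without BV+ Ctrl replicate 1 (1.59, 1.64 and 1.06) or replicate 2 (1.70, 1.36 and 1.03), each of which leaves 1 Ctrl library. For Fzd8 alone the call was lost without BV- NRF1 OE replicate 3 (adjusted p = 0.0644) or BV- Ctrl replicate 1 (adjusted p = 0.0606), which enter only through the shared spread. With the offsets for GC content and length, Fzd2 (1.30 ± 0.200, adjusted p = 0.00423), Fzd1 (1.21 ± 0.229, adjusted p = 0.00943) and Fzd8 (0.97 ± 0.259, adjusted p = 0.0326) were still called. Fzd3 was then called higher (0.62 ± 0.149, adjusted p = 0.0231), Fzd7 lower (-0.34 ± 0.0930, adjusted p = 0.0349), and the difference of Fzd10 shrank to 0.28 ± 0.142 (adjusted p = 0.189).

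**Figure D2:**
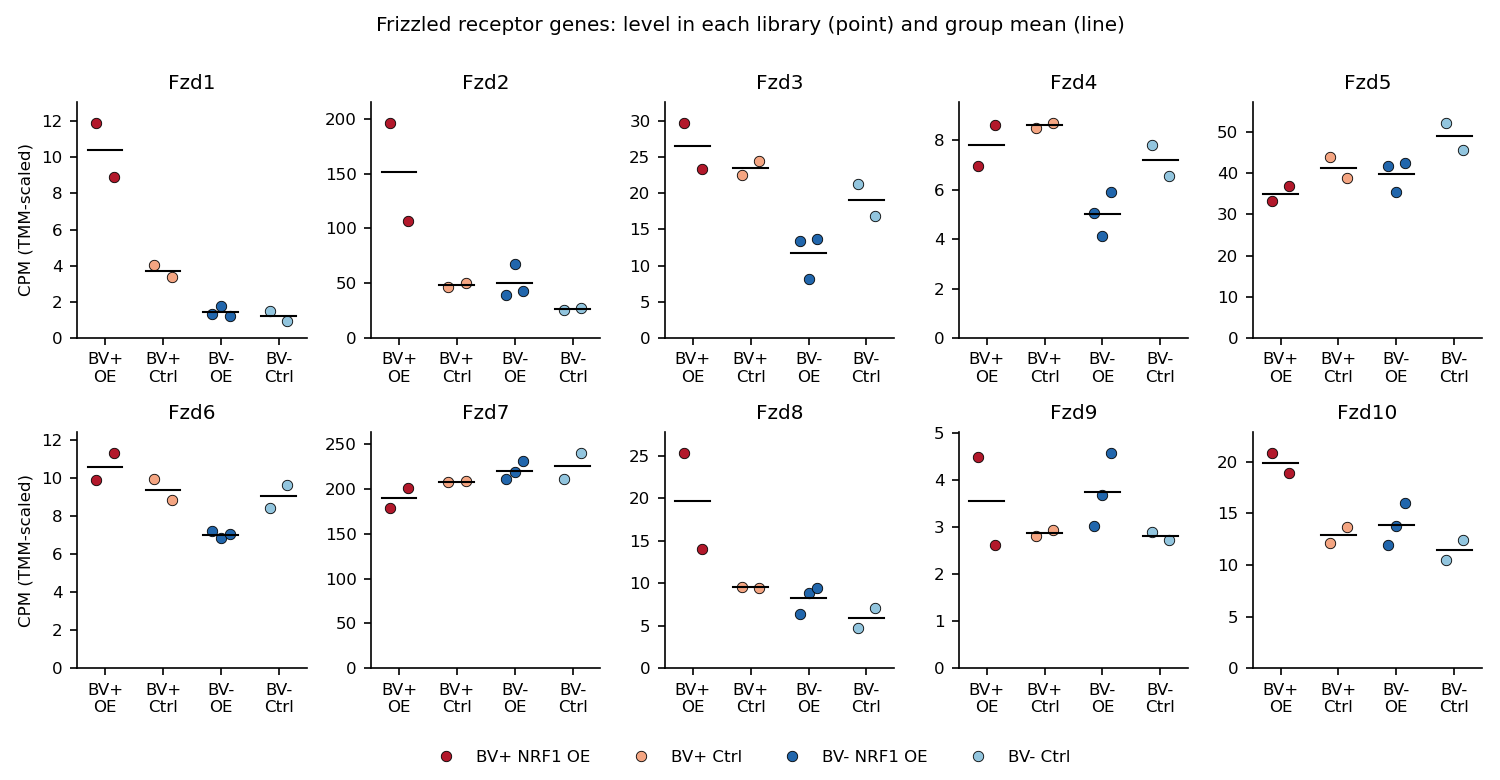
Level of each Frizzled gene in CPM (vertical axis, from 0, its own scale in each panel) in the 4 groups, with 1 point for each library and a line at the group mean. In BV+ NRF1 OE the points of Fzd1, Fzd2, Fzd8 and Fzd10 lie above those of all other groups, and the points of Fzd7 lie between 179 and 240 CPM throughout.

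Markers of other cell types moved with the same libraries. The summed level of 8 mesenchyme markers (Col1a1, Col1a2, Col3a1, Twist1, Prrx1, Snai2, Thy1 and Pdgfrb) was 456 and 714 CPM in BV+ NRF1 OE, with the higher value in replicate 1, and 131 and 134 CPM in BV+ Ctrl. In BV- cells it lay between 22.1 and 29.4 CPM with NRF1 OE and was 18.2 and 24.1 CPM with Ctrl. Col1a1 and Col1a2, which encode type I collagen, carried most of it, and no marker was at 0 in all libraries. Of the 7 mesenchyme markers tested, Col1a1, Col1a2, Col3a1 and Pdgfrb were called higher with NRF1 OE in BV+ cells and 0 lower. Thy1 went the other way without a call, at 3.5 and 2.39 CPM with NRF1 OE against 4.12 and 3.56 CPM with Ctrl. The neuroectoderm markers summed to between 112 and 165 CPM in BV+ NRF1 OE and between 65.4 and 72.3 CPM in BV+ Ctrl, and the primitive streak and mesoderm markers to between 29.6 and 40.8 and between 22.6 and 26.7 CPM. The PGC markers summed to between 407 and 409 CPM and between 370 and 375 CPM, the endoderm markers to between 13.6 and 18.8 and between 18.8 and 20.3 CPM, and the naive pluripotency markers to between 1010 and 1170 and between 1280 and 1320 CPM. Other lists also held calls. Nes was called higher among 4 neuroectoderm markers tested, and Itgb3 and Dppa3 among 8 PGC markers. Among 6 primitive streak and mesoderm markers Kdr was called higher and Pdgfra lower. Zfp42 and Klf4 were called lower among 6 naive pluripotency markers, and 0 of 6 endoderm markers were called. The part of these cell types in the Frizzled differences was not tested.

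In BV- cells, where the comparison asks for the same effect outside the PGCLC gate, Fzd2 was higher with NRF1 OE by 1.91 times and Fzd3 was lower, at 0.62 times the level of Ctrl. These calls, 1 member of 10 higher and 1 lower, compare with 10.3% and 6.98% of all genes, and 2 members against 16% of all genes passed the threshold of the study. The median log2 difference was 0.10 over the members and 0.01 over all genes tested. Fzd2 was at 39.2, 67.8 and 43.2 CPM in BV- NRF1 OE and at 25.2 and 27.1 CPM in BV- Ctrl. All 3 NRF1 OE libraries lay above both Ctrl libraries, and replicate 2 was highest. The log2 difference was 0.93 ± 0.267 (adjusted p = 0.0411). Fzd3 was at 13.4, 8.17 and 13.7 CPM with NRF1 OE and at 21.3 and 16.9 CPM with Ctrl, with no overlap and the lowest value in the same replicate 2. Its log2 difference was -0.69 ± 0.211 (adjusted p = 0.0466).

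Fzd4, Fzd6 and Fzd5 did not pass the test in BV- cells. Fzd4 was at 5.05, 4.12 and 5.92 CPM against 7.81 and 6.56 CPM (log2 -0.50 ± 0.196, adjusted p = 0.0843). Fzd6 was at 7.22, 6.84 and 7.04 CPM against 8.43 and 9.65 CPM (log2 -0.36 ± 0.155, adjusted p = 0.107). Fzd5 was at 41.7, 35.4 and 42.5 CPM against 52.2 and 45.7 CPM (log2 -0.29 ± 0.128, adjusted p = 0.113). Fzd9 was at 3.01, 3.68 and 4.56 CPM against 2.90 and 2.72 CPM and was not called (log2 0.42 ± 0.279, adjusted p = 0.284). The levels of Fzd1, Fzd7, Fzd8 and Fzd10 overlapped between the groups. Fzd1 was at 1.32, 1.77 and 1.24 CPM against 1.51 and 0.96 CPM, and Fzd7 at 211, 219 and 231 CPM against 211 and 240 CPM. Fzd8 was at 6.43, 8.90 and 9.41 CPM against 4.72 and 7.15 CPM, and Fzd10 at 11.9, 13.8 and 16.0 CPM against 10.5 and 12.4 CPM. Their log2 differences lay between -0.03 and 0.46, none called.

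Neither call in BV- cells held with the offsets for GC content and length, where Fzd2 was at 0.60 ± 0.196 (adjusted p = 0.0813) and Fzd3 at 0.04 ± 0.147 (adjusted p = 0.883). The longest transcript of Fzd3 has a GC content of 40.3%, the lowest of the 10 members, that of Fzd2 56.6%, and the median of all annotated genes is 47.1%. The trend fitted to genes of the GC content and length of Fzd3 was -0.77 in log2 for this comparison, beside the measured -0.69. For Fzd2 the fitted trend was 0.32, beside the measured 0.93. The GC trend set all NRF1 OE libraries apart from all Ctrl libraries. A trend of the libraries and an effect of NRF1 OE on genes of such GC content therefore cannot be told apart. The call of Fzd2 was also lost without BV+ Ctrl replicate 1 (0.94, adjusted p = 0.0692) or 2 (0.93, adjusted p = 0.0699), BV- NRF1 OE replicate 3 (1.03, adjusted p = 0.0625), and BV- Ctrl replicate 1 (0.88, adjusted p = 0.311) or 2 (0.97, adjusted p = 0.133). That of Fzd3 remained only without BV- NRF1 OE replicate 1 or 2, with log2 differences between -0.86 and -0.51 over the 9 libraries left out in turn and adjusted p up to 0.339.

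Marker levels also moved with NRF1 OE in BV- cells. The PGC markers summed to between 454 and 546 CPM with NRF1 OE and between 387 and 394 CPM with Ctrl, and 5 of 8 (Dppa3, Nanos3, Dnd1, Itgb3 and Tfap2c) were called higher. The naive pluripotency markers summed to between 1250 and 1340 and between 1310 and 1320 CPM, with Esrrb called higher and Tbx3, Klf4 and Zfp42 lower among 6. The primitive streak and mesoderm markers summed to between 10.7 and 11.7 and between 17.5 and 18.1 CPM, with Pdgfra called lower among 6. The endoderm markers summed to between 13.8 and 21.3 and between 22.6 and 22.8 CPM, with Gata6 called lower among 6. The neuroectoderm markers summed to between 37.6 and 49.3 and between 29.8 and 39.0 CPM, with 0 of 4 called. Of 7 mesenchyme markers Col3a1 was called higher (log2 2.08 ± 0.637, adjusted p = 0.0436), at low means of 0.52 against 0.111 CPM. No marker was at 0 in all libraries, and the part of these cell types in the values of Fzd2 and Fzd3 was not tested.

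**Figure D3:**
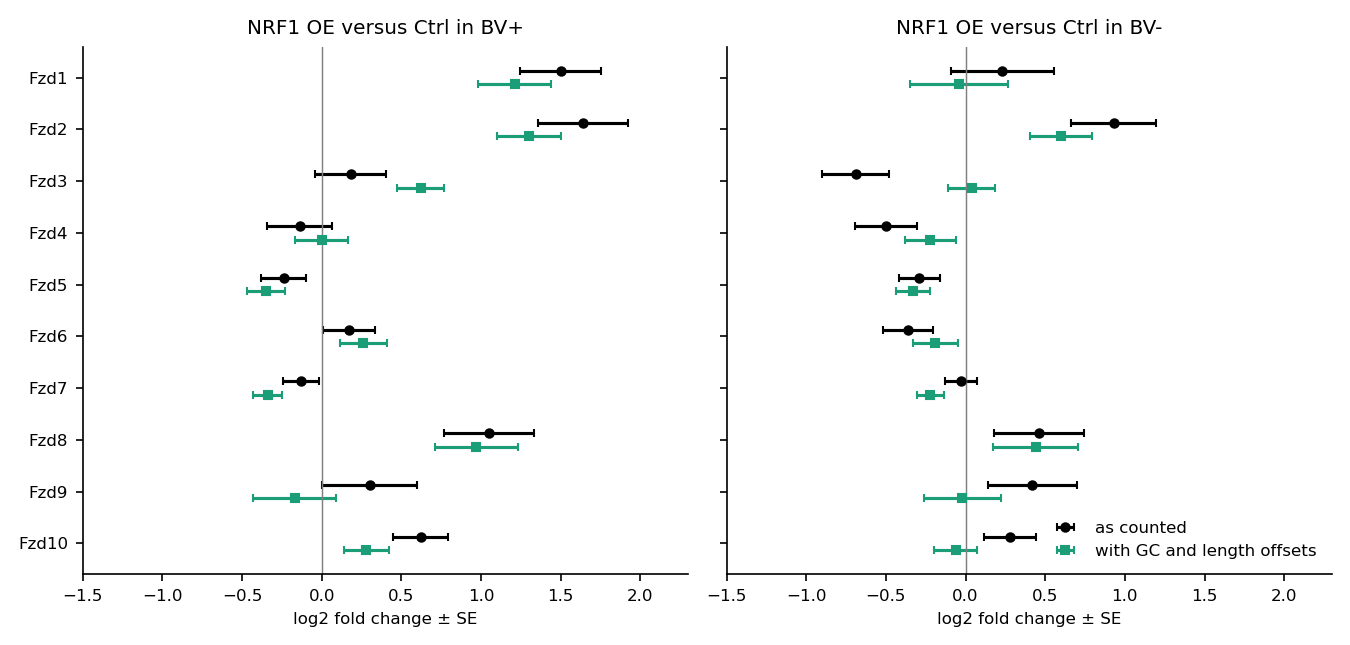
Log2 fold change of each Frizzled gene for NRF1 OE versus Ctrl in BV+ (left) and BV- cells (right), with bars of 1 SE. Black points are from the counts as deposited and green squares after offsets for GC content and length. In BV- cells Fzd3 moves from -0.69 to 0.04, and in BV+ cells Fzd1, Fzd2 and Fzd8 stay above 0.9.

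The effects of NRF1 OE in BV+ and in BV- cells were compared through the difference between them, and no Frizzled gene was called for it. Over all genes edgeR called 0% higher and 0% lower, with 932 genes and 3 members (Fzd1, Fzd3 and Fzd6) at an unadjusted p under 0.05. DESeq2 called 23 genes and edgeR without the filter 108 genes, with 0 members in each. For Fzd1 the effect was larger in BV+ cells by 1.27 ± 0.413 in log2 (adjusted p = 0.694), for Fzd3 by 0.87 ± 0.307 (adjusted p = 0.737) and for Fzd6 by 0.54 ± 0.226 (adjusted p = 0.835). For Fzd2 it was larger by 0.71 ± 0.380 (adjusted p = 0.954) and for Fzd8 by 0.58 ± 0.396 (adjusted p = 0.983). Fzd1 and Fzd3, 2 of the 10 members beside 4.48% of all genes, passed the threshold of the study. Those of Fzd2 and Fzd8 rest in part on 1 library. Without BV+ NRF1 OE replicate 1 the difference was 0.21 for Fzd2 and 0.09 for Fzd8, and without replicate 2 it was 1.08 and 0.95. For Fzd1, Fzd3 and Fzd6 it was 1.04, 0.68 and 0.63 without replicate 1, and 1.46, 1.03 and 0.44 without replicate 2.

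The labelled populations were next compared within each vector. With Ctrl, Fzd1 was 3.01 times higher in BV+ than in BV- cells and was the only member called, beside 1.1% of all genes called higher and 0.0237% called lower. The threshold of the study was passed by 3 members, against 5.74% of all genes. Fzd1 was at 4.06 and 3.35 CPM in BV+ Ctrl against 1.51 and 0.96 CPM in BV- Ctrl, a log2 difference of 1.59 ± 0.311 (adjusted p = 0.0335). It had between 18 and 232 counts per library, and 18 was the lowest count of any member. Its call was lost without BV+ Ctrl replicate 1 (1.45, adjusted p = 0.232) or 2 (1.73, adjusted p = 0.117), BV- Ctrl replicate 1 (1.93, adjusted p = 0.130) or 2 (1.26, adjusted p = 0.393), or BV- NRF1 OE replicate 1 (1.59, adjusted p = 0.0567). With the offsets it was at 1.49 ± 0.289 (adjusted p = 0.0216). Fzd2 (log2 0.89 ± 0.287, adjusted p = 0.288) and Fzd8 (log2 0.67 ± 0.301, adjusted p = 0.621) were not called, and Fzd2 was called without BV- NRF1 OE replicate 2 (0.92, adjusted p = 0.00664). The log2 differences of the other 7 members lay between -0.24 and 0.30.

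With NRF1 OE, 6 of the 10 Frizzled genes were called higher in BV+ than in BV- cells and 0 lower, beside 9.9% and 3.85% of all genes. The threshold of the study was passed by 6 members, against 14.7% of all genes, and the median log2 difference was 0.60 over the members and 0.00 over all genes tested. This comparison shares the BV+ NRF1 OE libraries with that against BV+ Ctrl, so that its values are not separate evidence for them. Fzd1 led, at 11.9 and 8.91 CPM against 1.32, 1.77 and 1.24 CPM. The groups stood 7.26 times apart, a log2 difference of 2.86 ± 0.251 (adjusted p = 2.28e-05). Fzd2 was 3.03 times higher in BV+ cells (log2 1.60 ± 0.249, adjusted p = 0.00135), with 196 and 107 CPM against 39.2, 67.8 and 43.2 CPM. Fzd8 was 2.39 times higher (log2 1.26 ± 0.255, adjusted p = 0.00726), with 25.3 and 14.0 CPM against 6.43, 8.90 and 9.41 CPM. For these 3 genes every BV+ NRF1 OE library lay above every BV- NRF1 OE library. The same held for Fzd3, Fzd4, Fzd6 and Fzd10, and Fzd7 was lower without overlap. The share of all genes without overlap was not counted.

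Both planar polarity receptors were among the 6 genes. Fzd3 was 2.25 times higher in BV+ cells, at 29.7 and 23.4 CPM against 13.4, 8.17 and 13.7 CPM (log2 1.17 ± 0.206, adjusted p = 0.00318). Fzd6 was 1.51 times higher, at 9.88 and 11.3 CPM against 7.22, 6.84 and 7.04 CPM (log2 0.59 ± 0.152, adjusted p = 0.0252). Fzd10 was 1.42 times higher (log2 0.51 ± 0.155, adjusted p = 0.0493), and the difference of Fzd4 missed the threshold (log2 0.62 ± 0.194, adjusted p = 0.0544). Fzd5, Fzd7 and Fzd9 were not called, with log2 differences of -0.19 ± 0.130, -0.21 ± 0.102 and -0.08 ± 0.269. With the offsets Fzd7 (-0.34 ± 0.0856, adjusted p = 0.0114) and Fzd5 (-0.40 ± 0.111, adjusted p = 0.0172) were called lower in BV+ cells, while the 6 genes above were still called. The difference of Fzd3 then shrank to 0.69 ± 0.142 in log2 (adjusted p = 0.00344), and the trend fitted to its GC content and length was 0.53.

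Fzd1 and Fzd2 were called in this comparison with any of the 9 libraries left out, and Fzd3 and Fzd8 with any but BV+ NRF1 OE replicate 1. Without that library Fzd1 and Fzd2 were the only members called, Fzd3 was at 0.99 (adjusted p = 0.0578), Fzd8 at 0.77 (adjusted p = 0.129), Fzd6 at 0.68 (adjusted p = 0.0661) and Fzd10 at 0.44 (adjusted p = 0.244). The call of Fzd6 was also lost without BV+ NRF1 OE replicate 2 (0.49), BV+ Ctrl replicate 1 (0.59) or BV- NRF1 OE replicate 3 (0.60), and that of Fzd10 without any library except BV- NRF1 OE replicate 2 or 3. Over these, the log2 difference of Fzd10 lay between 0.41 and 0.64. In a fit of only the BV+ and BV- NRF1 OE libraries, 4 members were called, without Fzd6 (0.62, adjusted p = 0.0822) and Fzd10 (0.55, adjusted p = 0.114). Fzd4 was called without BV- NRF1 OE replicate 3 (0.77, adjusted p = 0.0448).

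**Figure D4:**
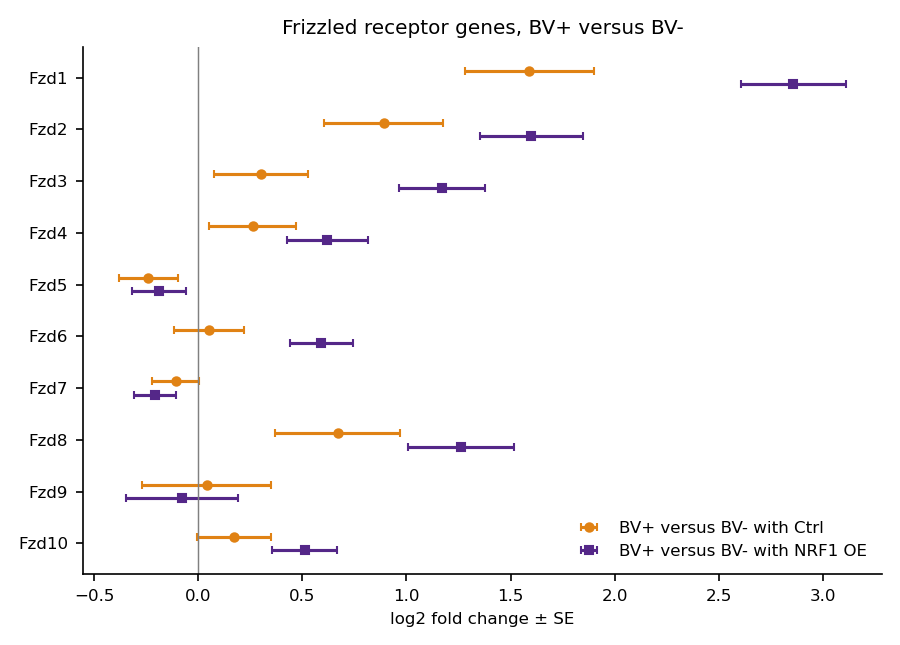
Log2 fold change of each Frizzled gene for BV+ versus BV- cells with Ctrl (orange points) and with NRF1 OE (purple squares), with bars of 1 SE. Fzd1 has the largest value in both, at 1.59 and 2.86, and Fzd5 and Fzd7 lie below 0 in both.

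As a sum, the mesenchyme markers were also higher in the BV+ libraries, with 3 of 7 called higher with Ctrl and 4 of 7 with NRF1 OE, and 0 lower. Col1a1 and Col1a2 carried most of the sum in the BV+ libraries, and Twist1, Snai2 and Thy1 overlapped between BV+ and BV- libraries. Thy1 lay between 2.39 and 4.12 CPM in BV+ and between 3.43 and 5.09 CPM in BV- libraries. The summed mesenchyme level set BV+ (131 to 714 CPM) apart from BV- libraries (18.2 to 29.4 CPM), as did the level of Fzd1. Fzd1 was not alone in this among the members. Fzd3 and Fzd8 were also higher in every BV+ library than in any BV- library, for Fzd8 narrowly (9.43 against 9.41 CPM). Fzd7 was lower in every BV+ library, also narrowly (at most 209 against at least 211 CPM). How many of all genes set the BV+ apart from the BV- libraries in this way was not counted. Of 6 primitive streak and mesoderm markers tested, Kdr was called higher in BV+ cells with Ctrl, and Kdr and Hand1 with NRF1 OE. Kdr, a marker of mesoderm with vessel potential, was higher by 1.75 ± 0.268 in log2 with Ctrl (adjusted p = 0.00869) and by 3.73 ± 0.237 with NRF1 OE (adjusted p = 3.54e-06). Of 4 neuroectoderm markers tested, Nes was called higher with Ctrl (1.94 ± 0.297), and Nes (2.96 ± 0.252) and Sox1 (0.93 ± 0.177) with NRF1 OE. In both comparisons 0 of 6 endoderm markers were called. Of 6 naive pluripotency markers, Tbx3 was called higher and Esrrb lower with NRF1 OE. Of the 8 PGC markers, Itgb3 was called higher in BV+ cells with NRF1 OE (1.24 ± 0.132), and Dppa3 (-0.65 ± 0.125), Nanos3 (-1.04 ± 0.187) and Tfap2c (-0.43 ± 0.129) were called lower. The markers were named after their values were seen. Whether these cells bear on the Frizzled values was not tested.

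**Figure D5:**
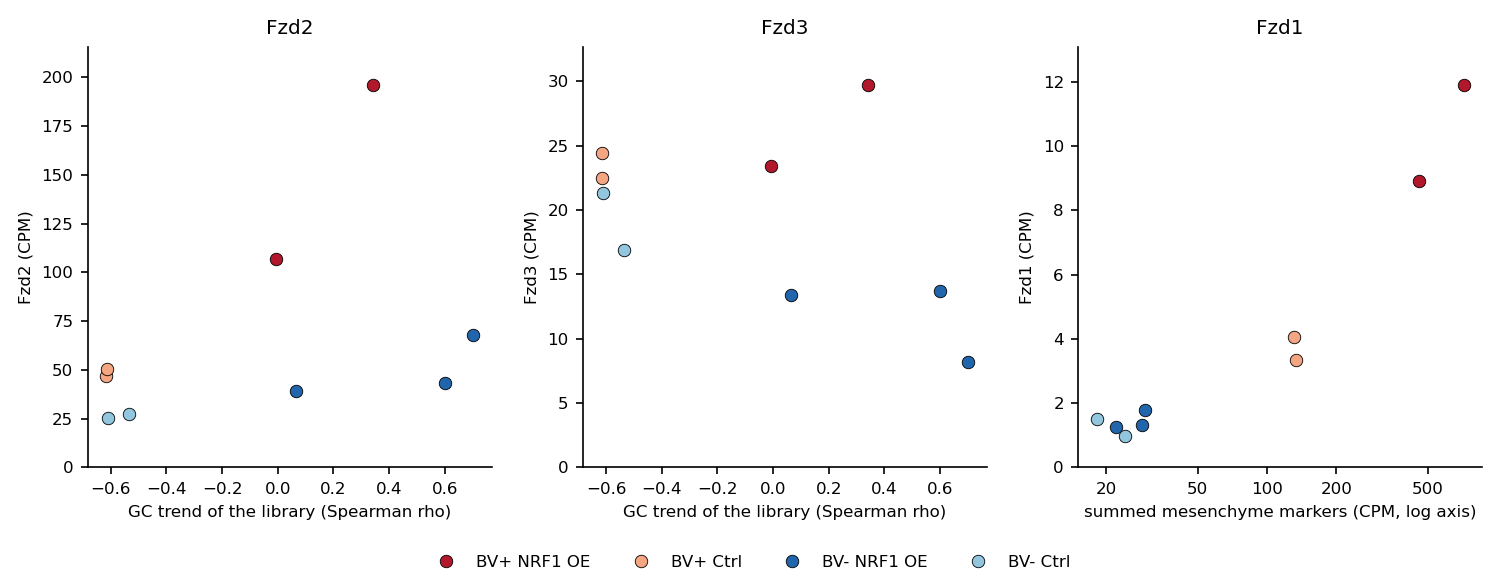
Values that move with the groups, 1 point for each library. Fzd2 and Fzd3 in CPM are set against the GC trend of the library (rank correlation), and Fzd1 in CPM against the summed mesenchyme markers (CPM, log axis). The NRF1 OE libraries lie to the right of the Ctrl libraries in the GC trend. The 4 BV+ libraries lie to the right of the 5 BV- libraries in the mesenchyme markers, with the highest Fzd1 at 714 CPM. Fzd3, Fzd7 and Fzd8 also set the BV+ apart from the BV- libraries, for Fzd7 and Fzd8 narrowly, and the share of all genes that do so was not counted.

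Among themselves the Frizzled genes varied in different ways over the 9 libraries, which share their group structure and the GC trend. The log2 CPM of Fzd2 had a Pearson correlation of 0.946 with Fzd8, 0.897 with Fzd10 and 0.874 with Fzd1, and of -0.895 with Fzd5 and -0.787 with Fzd7. The genes most like Fzd2 among 14361 genes were Plxnb2, a plexin receptor of semaphorins (r = 0.997), Phc2, a Polycomb group gene (r = 0.996), and Gnas, which encodes the stimulatory G protein α subunit (r = 0.995). After these trends were subtracted, Plxnb2 was still the most similar (r = 0.995), and Phc2 and Gnas ranked 6 and 81. The genes most like Fzd7 were Glul (r = 0.970), Pdha2 (r = 0.964) and Gars (r = 0.960). After the trends were subtracted these had r of 0.868, 0.748 and 0.947 and ranked 1038, 2529 and 189, so that none of them stayed among the first 3. These correlations describe 9 libraries and are given without a test.

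By structure, Fzd1, Fzd2, Fzd7, Fzd8, Fzd9 and Fzd10 have 1 exon in GENCODE M21, Fzd4 and Fzd5 have 2, and Fzd3 and Fzd6 have 7. The GC content of the longest transcript was 40.3% for Fzd3, 47.0% for Fzd4, 47.4% for Fzd6, 51.7% for Fzd8, 52.7% for Fzd5, 53.9% for Fzd7, 55.7% for Fzd1, 56.5% for Fzd10, 56.6% for Fzd2 and 62.2% for Fzd9. Fzd3, Fzd5 and Fzd6 overlap other annotated genes, in part on the opposite strand. Their counts may be affected by these overlaps, and in which direction was not tested.

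Other genes of the WNT pathway are given by lists of 79 genes in all, of which 59 were tested. With NRF1 OE in BV+ cells, 7 (11.9%) were called higher and 0 lower, beside 6.24% and 1.78% of all genes. In BV- cells 4 (6.78%) were called higher and 4 lower, beside 10.3% and 6.98%. In BV+ against BV- cells with Ctrl, 3 (5.08%) were called higher and 0 lower, beside 1.1% and 0.0237%. With NRF1 OE, 15 (25.4%) were called higher and 0 lower, beside 9.9% and 3.85%. Among the 9 ligands tested, Wnt9b was called higher with NRF1 OE in BV+ cells (log2 2.64 ± 0.701, adjusted p = 0.0427), at a mean of 1.49 CPM against 0.242 CPM. The ligands' median log2 difference was 0.73 in BV+ cells and 0.71 in BV- cells, where none was called.

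The co-receptors and alternative receptors, the partners with which Frizzled proteins form a signalling complex, had 3 of 10 members called higher with NRF1 OE in BV+ cells. These were Adgra2, which enhances WNT7 signalling (log2 1.95 ± 0.263, adjusted p = 0.0107), Ptk7, a pseudokinase of planar polarity (0.75 ± 0.163, adjusted p = 0.0273), and the co-receptor Lrp5 (0.58 ± 0.137, adjusted p = 0.0340). In BV- cells Ptk7 was called higher (0.73 ± 0.152, adjusted p = 0.0317) and the co-receptor Lrp6 lower (-0.72 ± 0.217, adjusted p = 0.0447). Among 9 secreted antagonists, most of which bind WNT ligands or LRP co-receptors, Frzb was called higher in BV+ cells with NRF1 OE (1.48 ± 0.367, adjusted p = 0.0382) and Sfrp4 lower in BV- cells (-0.79 ± 0.196, adjusted p = 0.0338). Frzb encodes a secreted protein with a Frizzled-like ligand-binding domain. It was also higher in BV+ than in BV- Ctrl cells (3.74 ± 0.567, adjusted p = 0.00836), at means of 4.31 against 0.303 CPM.

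Of the 6 genes tested that control Frizzled turnover at the membrane, none was called with NRF1 OE in either population. Rspo3 was higher in BV+ than in BV- cells with NRF1 OE (3.74 ± 0.968, adjusted p = 0.0233). Its level was low, at means of 1.77 against 0.12 CPM. Of the 11 transducers, Dvl1, Dvl2 and Gsk3a were called higher with NRF1 OE in BV- cells, and Apc and Csnk1a1, named after their values were seen, lower. None was called in BV+ cells. The Dishevelled gene Dvl2 had a log2 difference of 0.54 ± 0.106 (adjusted p = 0.0317). Among the 8 planar polarity partners, Prickle1 (0.74 ± 0.176, adjusted p = 0.0347) and Celsr2 (0.79 ± 0.216, adjusted p = 0.0473) were called higher with NRF1 OE in BV+ cells. Prickle1 was also higher in BV+ than in BV- cells with Ctrl (2.03 ± 0.198, adjusted p = 0.000892) and with NRF1 OE (2.55 ± 0.170, adjusted p = 4.4e-06). Of the 6 WNT target genes tested, none was called in any of these comparisons, with a median log2 difference of 0.28 for NRF1 OE in BV+ cells and 0.10 in BV- cells.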

How the data were processed

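Per the labels and the methods of the study, poly(A) RNA of sorted EB cells was sequenced, and the authors used HISAT2 2.0.1 for mapping to GRCm39 and HTSeq 0.6.1 for the counts per gene. The strand setting of the counting is not given in the sources used here. The authors deposited raw counts, which are not normalized, and FPKM, which divide these by gene length and depth. FPKM were used only to compare levels between genes.

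In R 4.3.3, edgeR 4.0.16 fitted all 9 libraries in 1 model with a term for each of 4 groups, after filterByExpr (16903 of 33142 genes with a count) and TMM (factors 0.969 to 1.03). Tests were two-sided quasi-likelihood F tests, adjusted over all genes tested. The common biological coefficient of variation was 0.129. Replicate libraries differed beyond sampling noise (chi-square per degree of freedom 2.99 to 34.7), so each was kept as a library of its own. The fit was run on simulated counts in which 200 genes were changed by 1.5 in log2. It recovered from 129 (difference of the effects) to 165 (NRF1 OE in BV- cells) of them. The simulated counts took their spread from the fit and held no GC trend, so they do not show how the fit fares with one.

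GC content, length and exons came from GENCODE M21 on GRCm38 (98.6% of genes tested matched), promoters from RefSeq. Alternatives were other scalings, filters, DESeq2 1.42.0, fits of only the groups compared, the replicate number as a block, offsets for GC content and length, and each library left out in turn. The members and lists were chosen with earlier results of these data known. All 10 members were named, with at most 3 genes of each WNT list by smallest p where any was called, and the 3 genes most like Fzd2 and Fzd7 with a mean of at least 1 CPM. Figures used Python 3.11.15 and matplotlib 3.10.9.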

Additional observations from a re-analysis of the deposited data

How the results depend on the processing

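Over 940 values of single members under the alternatives, 831 kept their direction and their side of the threshold, 63 lost a call, 18 gained one and 28 changed sign. The 28 hold the call of Fzd3 for NRF1 OE in BV- cells, lost with the offsets. Members not called at first are included, and for them no call could be lost. Of 10 alternatives that left no single library out, the calls for NRF1 OE in BV+ cells held in 9 for Fzd1 and Fzd2 and 7 for Fzd8. Both calls in BV- cells held in 6. Between BV+ and BV- cells, that of Fzd1 held in 9 with Ctrl. With NRF1 OE, those of Fzd1, Fzd2, Fzd3 and Fzd8 held in 10, Fzd6 in 7 and Fzd10 in 4. Calls rest on groups of 2 or 3 libraries, and leaving out 1 of 2 assumes that the other varies like the remaining groups. The number of members called for NRF1 OE versus Ctrl in BV+ cells was 3, and it became 5 with the GC and length offsets and 0 with the replicate block, while leaving out each library gave 0 to 4. In BV- cells it was 2, and 0 with the offsets, with the replicate block, with both together and in a fit of only the groups compared, while leaving out each library gave 0 to 2. For BV+ versus BV- cells with Ctrl it was 1, and became 2 without a filter, 3 in a fit of only the groups compared, 3 by the threshold of the study and 0 with the replicate block, with 0 to 2 over the libraries left out. With NRF1 OE it was 6, and became 4 both with the replicate block, where Fzd6 (adjusted p = 0.128) and Fzd10 (adjusted p = 0.0722) were lost, and in a fit of only the groups compared, with 2 to 6 over the libraries left out. For the difference of the effects it was 0, and 2 by the threshold of the study. Of the 3 genes most like Fzd2, 1 remained in the top 3 after the GC and length trend was subtracted, and of those most like Fzd7, 0.

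The replicate numbers were not taken to pair the libraries. Same-numbered libraries deviated together in BV- NRF1 OE and BV- Ctrl (r = 0.443 and 0.466), and the other pairs lay between -0.541 and -0.015. Because BV+ Ctrl and BV- Ctrl gave -0.203, a crossed pairing of the 4 Ctrl libraries was added after seeing the data, and it called 5 members. Pairs picked for their correlation leave less spread, so this count says nothing about the planned block. Whether the numbers pair the libraries was not settled, and the calls that the replicate block ended remain uncertain.

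Signs changed mostly for differences near 0, and the cause was not tested. With the GC and length offsets, Fzd9 moved to -0.17 for NRF1 OE in BV+ cells, and for NRF1 OE in BV- cells Fzd1 moved to -0.04, Fzd3 to 0.04, Fzd9 to -0.02 and Fzd10 to -0.06. With the replicate block and offsets together, Fzd9 was at -0.19 in BV+ cells and at -0.17 in BV- cells, and Fzd10 at -0.16 in BV- cells. Between BV+ and BV- Ctrl cells, Fzd6 was at -0.05 with the offsets and at -0.04 with block and offsets. With the replicate block, Fzd9 was at 0.08 between BV+ and BV- cells with NRF1 OE and at 0.04 for the difference of the effects, where Fzd5 was at -0.02 with the offsets. Over the libraries left out in turn, the log2 difference for NRF1 OE in BV+ cells ran from -0.31 to 0.01 for Fzd4 and from -0.14 to 0.64 for Fzd9. In BV- cells it ran from -0.09 to 0.57 for Fzd1 and from -0.12 to 0.05 for Fzd7. Between BV+ and BV- cells it ran with Ctrl from -0.04 to 0.14 for Fzd6 and from -0.04 to 0.08 for Fzd9, and with NRF1 OE from -0.52 to 0.25 for Fzd9. For the difference of the effects it ran from -0.05 to 0.21 for Fzd5 and from -0.56 to 0.22 for Fzd9.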
